A study of Bos taurus with 6 samples.

Results

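The cytosolic ribosomal protein genes of bovine late morulae were followed across knockdowns of 2 components of the NOTCH pathway. Members were chosen by name: symbols that start with RPL or RPS and a digit, with RPLP0, RPLP1, RPLP2 and RPSA, without the S6 kinases and RPS19BP1, and whose values averaged 10 or more across the 6 libraries. Of 82 such symbols 80 had that mean, which made 80 of the 12070 named genes tested. They comprised 47 genes of the large subunit and 33 of the small subunit. RPL36AL, with a mean of 449.7, had the lowest value of the 80. RPL10L and RPL3L, with means of 2.97 and 0.854, had too few counts to be kept. RPL22, RPL31, RPL41 and RPL39L were not analysed here. The rule used names and mean values, not changes between groups, but it was set with earlier results of these data known.

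Polyadenylated RNA had been sequenced from Bos taurus embryos at the late morula stage, on day 6 after in vitro fertilization. All embryos received an siRNA, a short double-stranded RNA that directs the breakdown of a matching messenger, by injection: a nonspecific one in the control group, one against NOTCH1, or one against RBPJ. Each of the 3 groups had 2 libraries, and every library was a pool of 15 whole embryos, so that single embryos and single cells cannot be seen. NOTCH1 is a NOTCH receptor, and RBPJ is the DNA-binding protein through which activated receptors act on transcription. The labels give no breed, no embryo sex and no statement that the replicates came from separate fertilizations, so p-values here speak only for the variation among these 6 libraries, some or all of which may be technical.

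A ribosome joins a large and a small subunit, each made of ribosomal RNA and many different proteins that are needed in near-equal numbers. Their messenger RNAs begin with a tract of pyrimidines (the 5′ TOP motif), through which the mTOR pathway and the protein LARP1 adjust their translation and stability together. In cattle the embryo's own genome becomes active during cleavage, before the morula, and ribosome production then shifts from maternal stores to embryonic transcripts.

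The values are counts scaled by the authors, called scaled counts here. Their totals were 10365695 to 10815554 per library, and the depth read back from the smallest steps between values was about 9620981 to 13669648 reads; RBPJ knockdown replicate 1 was deeper than the other 5 libraries. RBPJ stood at 447 and 391 in the control libraries, 361 and 399.6 under NOTCH1 knockdown and 121 and 94.5 under RBPJ knockdown, a log2 change of −1.96 that passed limma's test (adjusted p = 0.00143). NOTCH1 stood at 69.6 and 139.8 in the controls and 48 and 49.5 under its own knockdown, below both controls, but its log2 change of −1.003 did not reach the threshold (limma adjusted p = 0.634). The RBPJ knockdown libraries held 50 and 125 for NOTCH1, a spread as wide as that of the controls. POU5F1 (10911 to 12942), CDH1 (10155 to 12325) and KRT8 (7578 to 16107), markers of pluripotent and epithelial embryo cells, were abundant in every library. The pluripotency marker NANOG had only 125 to 200, and SOX2 was not among the named genes. Of the blood and immune markers, CD3E was at 0 in 3 libraries and PTPRC in 1. CD68 (47.0 to 95.9) and LYZ (44.7 to 88.8) had counts in every library. The summed markers of cumulus cells (294 to 402 over all libraries) and of blood (1150 to 1557, mostly HBA) overlapped between each knockdown and the control.

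Ribosomal protein transcripts made up 5.65% and 5.39% of the scaled counts of named genes in the control libraries, 5.24% and 5.09% under NOTCH1 knockdown, and 4.93% and 5.05% under RBPJ knockdown. By this share every knockdown library was below both controls, and the RBPJ libraries were below the NOTCH1 libraries. On the deposited scale the summed values overlapped, since NOTCH1 replicate 1, at 532010, lay above control replicate 2, at 524062. As means these shares were 5.52% ± 0.184 (SD, n = 2), 5.17% ± 0.11 and 4.99% ± 0.0872. With 2 libraries against 2 no exact test can reach 0.05, so the order of the shares is a description. In pooled embryos, fewer cells of a type and less of these transcripts per cell cannot be told apart.

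By summed counts, the division between the subunits overlapped between the groups. Large subunit genes summed to 1.176 and 1.174 times the small subunit genes in the controls, to 1.186 and 1.176 times under NOTCH1 knockdown, and to 1.173 and 1.178 times under RBPJ knockdown. The means were 1.175 ± 0.00192 (SD, n = 2), 1.181 ± 0.00723 and 1.175 ± 0.00363. While the shares of all ribosomal protein transcripts did not overlap between the groups, the means of this ratio differed by less than 1 SD between NOTCH1 replicates.

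**Figure D1:**
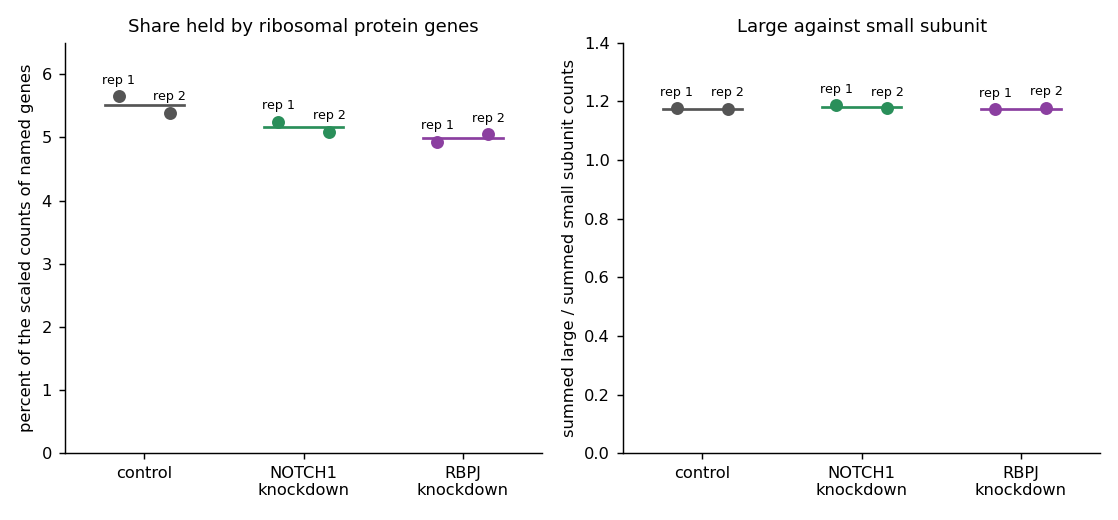
The left panel plots the percent of the scaled counts of named genes held by the 80 ribosomal protein genes, and the right panel the ratio of summed large to summed small subunit genes (no unit); points are libraries labelled by replicate, and lines are group means. The controls lie at 5.39 and 5.65%, above all 4 knockdown libraries, while the ratio stays between 1.173 and 1.186 in all 6.

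The single libraries were then compared. Each gene's log2(scaled count + 1) was set against its own mean over the 6 libraries, and the median over the 80 genes was taken per library. It was 0.13 in control replicate 1, 0.02 in control replicate 2, 0.05 and −0.04 in the NOTCH1 knockdown, and −0.08 and −0.07 in the RBPJ knockdown. Control replicate 1 was thus the highest, control replicate 2 lay between the NOTCH1 libraries, and both RBPJ libraries were the lowest. Taken alone, the large subunit genes had medians of 0.14, 0.03, 0.05, −0.04, −0.08 and −0.07 in that order of libraries. The small subunit genes followed with 0.12, 0.02, 0.06, −0.03, −0.07 and −0.08. Replicates differed by a pooled SD of 0.0572 in the median of all 80 genes, but by only 0.00979 in the gap between the subunits. This gap, the large minus the small subunit median, was 0.026 and 0.011 in the controls. It was −0.004 and −0.012 under NOTCH1 knockdown and −0.009 and 0.008 under RBPJ knockdown. By this measure, unlike the summed ratio, every knockdown library lay below both controls, and the order was not tested. RBPJ replicate 2 lay below control replicate 2 by less than the pooled SD of this gap. In median log2 change after RBPJ knockdown the gap had the other sign, at 0.007.

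Control replicate 1 held the highest value of 49 of the 80 genes, against 21.4% of all genes tested, and NOTCH1 replicate 1 that of 15, near its share of 20.1% of all genes. RBPJ replicates 1 and 2 held the lowest value of 33 and 31 genes, against 14.6% and 16.6% of all genes. Replicate 1 exceeded replicate 2 for 59 of the 80 genes in the control and for 67 under NOTCH1 knockdown, against 50.0% and 51.9% of all genes tested. Under RBPJ knockdown the same count was 40 of 80. The genes also scattered most in control replicate 1, where the middle 50% of the deviations spanned 0.154, against as little as 0.0638 in another library. All genes tested scattered most in that library too, with a span of 0.303 against 0.211 to 0.255 in the others.

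**Figure D2:**
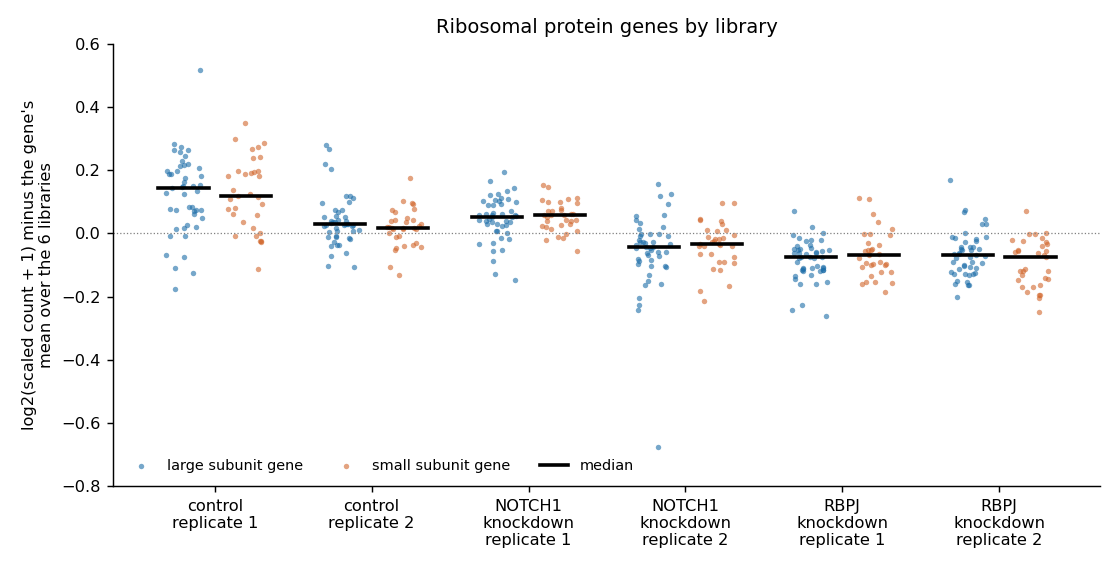
Each point is a ribosomal protein gene in one library, plotted as its log2(scaled count + 1) minus its mean over the 6 libraries; blue points are large subunit genes, orange points small subunit genes, and black bars medians. The bars of both subunits sit at 0.14 and 0.12 in control replicate 1 and between −0.08 and −0.07 in the RBPJ knockdown libraries.

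After NOTCH1 knockdown most ribosomal protein genes had lower values than in the controls, by small amounts, and none passed the test. By sign alone 64 of 80 were lower, against 48.9% of all genes tested, and 16 were higher. The median log2 change was −0.08 (−5.65%), with quartiles at −0.13 and −0.02, against 0.01 for all genes. In both subunits most genes were lower: 37 of 47 in the large subunit (median −0.09) and 27 of 33 in the small subunit (median −0.08), a gap between subunits of −0.019 that depended on which libraries and genes entered. Both NOTCH1 libraries were below both controls for 24 genes, 14 of the large and 10 of the small subunit, while 17.2% of all genes did so. When libraries were scaled by the total of all other genes, that count was 44. That scaling moved all genes: 58.6% of them were then lower by sign, with a median of −0.05. The share of all genes below both controls was not computed under it. Both were above both controls for 8 genes, against 18.6% of all genes. No ribosomal protein gene reached a limma adjusted p below 0.05, nor did any other gene (0.0% called). With the replicate number as a block, limma called 138 of 12070 genes, RPL39 and RPL12 among them, which made 2 of the 80 members. At an unadjusted p below 0.05, 880 genes were listed, of which 329 were lower (2.73%), and 2 of these were ribosomal protein genes, RPL39 and RPL12.

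This median rested on control replicate 1 and NOTCH1 replicate 2. It was −0.01 without the first, with 46 of 80 genes lower, and −0.03 without the second, with 48 lower. It was −0.14 under quantile normalization and also when scaled by the total of the other genes. The medians of all genes tested under these settings were −0.01 and −0.05.

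After RBPJ knockdown nearly all ribosomal protein genes had lower values than in the controls, again with none past the test. By sign 78 of 80 were lower, against 50.3% of all genes, and RPL35 and RPS9 were the exceptions. The median log2 change was −0.15 (−9.98%), with quartiles at −0.21 and −0.09, against −0.00 for all genes. The large subunit had a median of −0.15 (46 of 47 lower) and the small subunit −0.16 (32 of 33 lower), a gap of 0.007. Both RBPJ libraries were below both controls for 57 genes, 33 of the large and 24 of the small subunit, against 16.8% of all genes, and none of the 80 was above both controls in both, against 15.3% of all genes. RBPJ itself was the single gene of 12070 called in this comparison (0.00829%), and 12 genes, none of them a member, were called with the replicate block. At an unadjusted p below 0.05, 13 ribosomal protein genes were listed, all lower, against 183 lower genes of 12070 (1.52%). The smallest adjusted p among the 80 was 0.983 (limma). Without control replicate 1 the median was −0.11, with 74 of 80 genes lower, and over all omissions of 1 library it ranged from −0.20 to −0.11.

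Fold changes of single members had limma standard errors of 0.0918 to 0.216 on the log2 scale (median 0.103), larger than the median change after NOTCH1 knockdown. Both knockdowns were set against the same 2 control libraries, so their fold changes are not independent. Summed oocyte transcripts (H1FOO, ZP2, ZP3, ZP4, GDF9, BMP15, NLRP5 and BTG4, messengers stored in the egg) were also lower by value in the knockdowns: 315 to 411 in the controls, 115 to 252 under NOTCH1 knockdown and 155 to 269 under RBPJ knockdown, with all 8 genes lower in the first comparison and 7 of 8 in the second and none called. Summed epithelial and trophectoderm markers were 35295 to 38174 in the controls, 41004 to 48226 under NOTCH1 knockdown and 31944 to 44481 under RBPJ knockdown. Pluripotency markers, mostly POU5F1 and KLF4, summed to 19076 to 20884, 22326 to 22482 and 19810 to 21521 in the same order. Fibroblast markers summed to 1395 to 1509, 1334 to 1382 and 1449 to 1538. Most of the fibroblast sum was PDGFRA (830 to 995 over all libraries), while COL3A1 and LUM had means of 3.7 and 12.6. The part of these cell types in the ribosomal protein values was not tested.

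**Figure D3:**
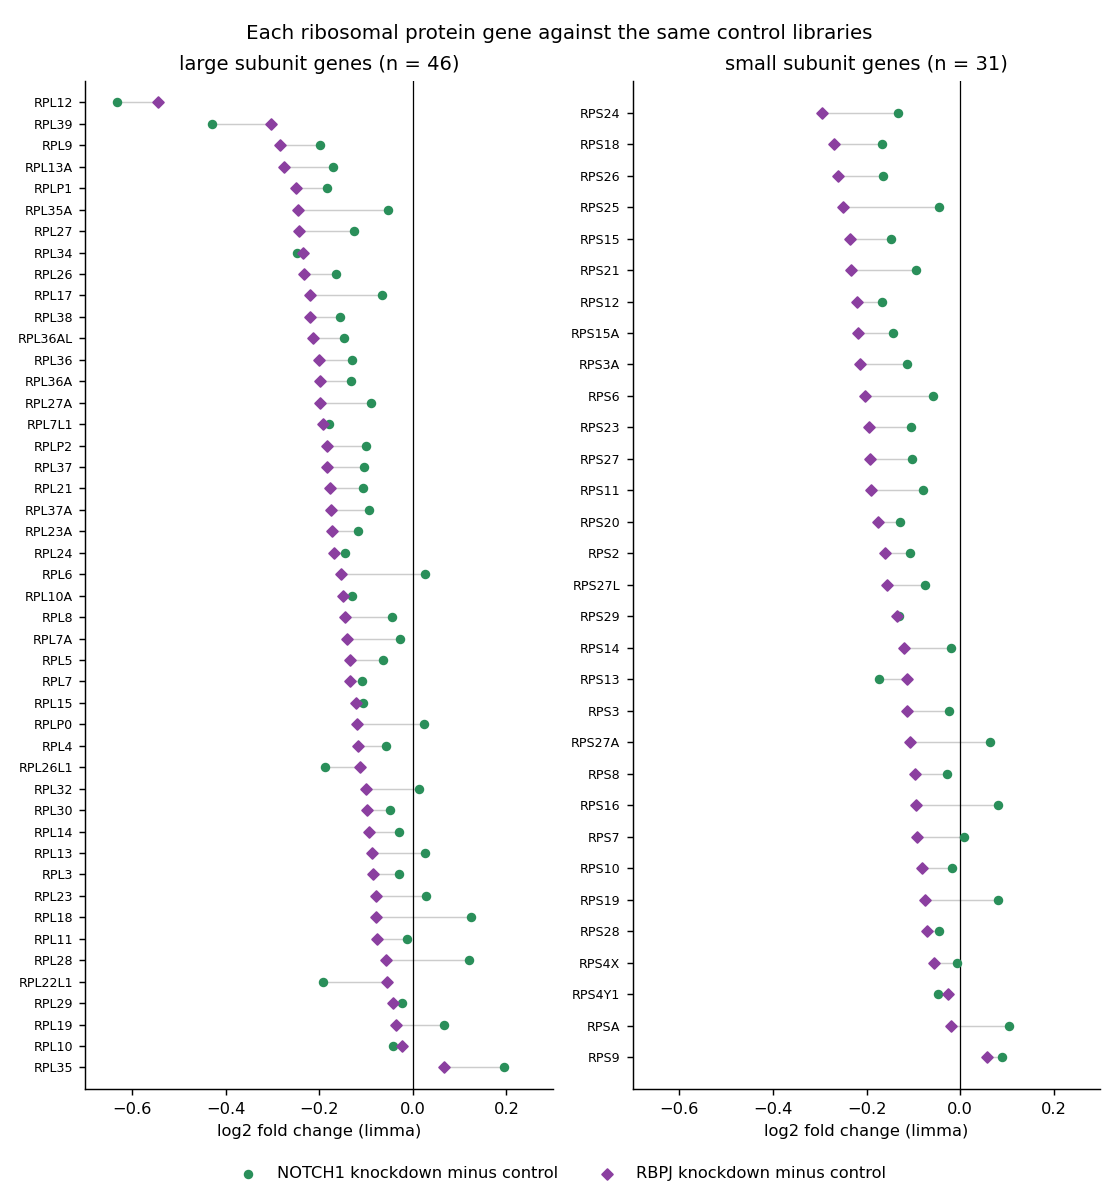
Each row is one of 77 genes, with its limma log2 fold change against the same control libraries after NOTCH1 knockdown (green circles) and RBPJ knockdown (purple diamonds), in order of the latter; grey lines join the pair and the black line marks 0. The diamonds lie left of 0 for 75 of these genes and the circles for 62, and RPL12 and RPL39 lie farthest left.

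Among the large subunit genes, those of the stalk were described first. The stalk is the flexible arm that recruits elongation factors, built from RPLP1 and RPLP2 on RPLP0, with RPL12 at its base. The 4 genes had a median log2 change of −0.14 after NOTCH1 knockdown (3 of 4 lower) and −0.22 after RBPJ knockdown (4 of 4 lower). RPL12 had 1624 and 1367 scaled counts in the controls, 1300.4 and 710.0 under NOTCH1 knockdown and 959 and 1088 under RBPJ knockdown. All 4 knockdown libraries were below both controls, and NOTCH1 replicate 2 was far below the other libraries. Its log2 changes of −0.63 (SE 0.22) and −0.54 were the largest of the 80 genes, with limma adjusted p-values of 0.531 and 0.983. With the replicate block the first had an adjusted p of 0.0451 by limma. Without NOTCH1 replicate 2 the first was −0.20, and without replicate 1 it was −1.07.

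RPLP1 had 9079 and 8218 in the controls, 7956 and 7262 under NOTCH1 knockdown and 7272 and 7249 under RBPJ knockdown, again with every knockdown library below both controls (log2 −0.18 and −0.25, the first −0.11 without control replicate 1). Its partner RPLP2 had 4521 and 4113 in the controls, 4309 and 3757 under NOTCH1 knockdown and 3897 and 3695 under RBPJ knockdown; here the NOTCH1 libraries straddled the lower control (log2 −0.10 and −0.18). RPLP0, the scaffold of the stalk, had 18500.5 and 18774 in the controls, 19165 and 18756 under NOTCH1 knockdown and 16401 and 17932 under RBPJ knockdown. It overlapped the controls in the first knockdown and lay below them in the second (log2 0.02 and −0.12).

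The peptide exit tunnel is the channel through which the new chain leaves the large subunit. Of its 7 genes measured (RPL4, RPL17, RPL39, RPL19, RPL23A, RPL26 and RPL35), 5 were lower after NOTCH1 knockdown (median −0.07) and 6 after RBPJ knockdown (median −0.17). RPL39, a very small protein in the tunnel wall, had 3625 and 3810.3 in the controls, 2869 and 2655 under NOTCH1 knockdown and 2977 and 3048 under RBPJ knockdown. The libraries of the 3 groups did not overlap, and RPL39 was lower under NOTCH1 than under RBPJ knockdown, against the order of most members. Its log2 change of −0.43 (SE 0.10, 95% interval −0.64 to −0.21) had the smallest p of the 80 genes in that comparison, with a limma adjusted p of 0.353 (0.0196 with the replicate block), and ranged from −0.49 to −0.37 when single libraries were left out. After RBPJ knockdown it was −0.30 (adjusted p = 0.983).

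The tunnel also held the member with the highest fold change against the control in both knockdowns. RPL35, at the tunnel's rim, had 4961 and 5622 in the controls, 5972 and 6117 under NOTCH1 knockdown and 5195 and 5879 under RBPJ knockdown. Both NOTCH1 libraries were above both controls (log2 0.19, and 0.10 without control replicate 1), while the RBPJ libraries overlapped them (log2 0.07, and −0.02 without control replicate 1 or without RBPJ replicate 2). RPL19 was likewise above the controls after NOTCH1 knockdown, at 7088 and 7086 against 6769 and 6768, and below them after RBPJ knockdown, at 6456 and 6743. RPL26 had 3689 and 3291 with the nonspecific siRNA, 3247 and 2974 with NOTCH1 targeted and 2982 and 2949 with RBPJ targeted, with all knockdown libraries below both controls (log2 −0.17 and −0.23). RPL17, also at the rim, had 6007 and 5386 in control libraries, 5473 and 5397 in NOTCH1 libraries and 4811 and 4951 in RBPJ libraries. Its NOTCH1 libraries lay between the controls and its RBPJ libraries below them (log2 −0.07 and −0.22).

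RPL5 and RPL11 bind the 5S ribosomal RNA and, when free, the p53 regulator MDM2. RPL5 had 7579.8 and 6993 in the controls, 6994 and 6939 under NOTCH1 knockdown and 6669.5 and 6587 under RBPJ knockdown. RPL11 had 5697 and 5330.0 in the controls, 5481 and 5451 under NOTCH1 knockdown and 5209.9 and 5240.0 under RBPJ knockdown. The medians of the pair were −0.04 and −0.11, and for both genes the RBPJ libraries lay below both controls (log2 −0.14 and −0.08).

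Other large subunit genes with low p-values were RPL9, RPL34, RPL35A, RPL13A and RPL27. RPL9 had 5546 and 4674 in the controls, 4506 and 4369.6 under NOTCH1 knockdown and 4201 and 4161 under RBPJ knockdown, without overlap (log2 −0.20 and −0.28). Control replicate 1 was far above the other libraries, and without it the values were −0.07 and −0.16; without control replicate 2 the first was −0.32. RPL34 had 2289 and 2031 with the nonspecific siRNA, 2005 and 1647 with NOTCH1 targeted and 1882 and 1785 with RBPJ targeted, with all knockdown libraries below both controls (log2 −0.25 and −0.23). The NOTCH1 value of RPL34 was −0.10 without NOTCH1 replicate 2, −0.39 without NOTCH1 replicate 1 and −0.16 without control replicate 1. RPL35A, one of the genes mutated in Diamond-Blackfan anaemia, had 3009 and 2664 in the controls, 2709 and 2752 under NOTCH1 knockdown and 2363 and 2414 under RBPJ knockdown. Its NOTCH1 libraries lay between the controls and its RBPJ libraries lay below (log2 −0.05 and −0.25). RPL13A, known also as a translational silencer once released from the ribosome, had 18512 and 15554 in control libraries, 16652 and 13658 in NOTCH1 libraries and 14788 and 13301 in RBPJ libraries. RPL27 had 3928 and 3237 in the controls, 3381 and 3155 under NOTCH1 knockdown and 3018 and 3004 under RBPJ knockdown. In both genes control replicate 1 was again the highest library by a wide margin, and the NOTCH1 libraries overlapped the other control.

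Small subunit genes were grouped by their place at the messenger RNA channel and decoding side, with RPS2, RPS3, RPS15, RPS23, RPS26 and RPS28 among them. All 7 genes of this list were lower after both knockdowns, with medians of −0.10 and −0.16. Of all 80 members 64 and 78 were lower. RPS9, also near the channel's entry, was not in the list and was higher by sign after both knockdowns. RPS26, which contacts messenger RNA near the exit of the channel, had 6567 and 6217 in the controls, 5708 and 5692 under NOTCH1 knockdown and 5377 and 5280.3 under RBPJ knockdown. The 3 groups did not overlap (log2 −0.16 and −0.26, SE 0.09). RPS2, at the channel's entry, had 29592 and 33369.6 with the nonspecific siRNA, 29528 and 28848 with NOTCH1 targeted and 27120.4 and 29137 with RBPJ targeted; all knockdown libraries were below both controls, and control replicate 2 was the highest (log2 −0.11 and −0.16). RPS3, its neighbour at the entry, had 20988 and 20542 in control libraries, 21132 and 19761 in NOTCH1 libraries and 18818 and 19585 in RBPJ libraries, where the NOTCH1 libraries lay on both sides of the controls and the RBPJ libraries below them (log2 −0.02 and −0.11). RPS23, which lines the decoding centre, had 7351 and 6566 in the controls, 6513 and 6410.2 under NOTCH1 knockdown and 6464 and 5705 under RBPJ knockdown, all knockdown libraries below both controls (log2 −0.10 and −0.19).

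RPS6 is the substrate of the S6 kinases that act under mTOR. It had 6681 and 6761 in the controls, 6604 and 6305 under NOTCH1 knockdown and 5679.7 and 6002 under RBPJ knockdown. The controls were close together, all 4 knockdown libraries were below them, and the RBPJ libraries were the lowest (log2 −0.06 and −0.20).

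RPS24, RPS18 and RPS25 had the lowest p-values of the small subunit beside RPS26 after RBPJ knockdown. RPS24 had 4579.8 and 3848 in the controls, 3943 and 3718 under NOTCH1 knockdown and 3342 and 3498 under RBPJ knockdown, with the NOTCH1 libraries around the lower control and the RBPJ libraries below all others (log2 −0.13 and −0.30). RPS18 had 6624 and 5786 with the nonspecific siRNA, 5685 and 5349 with NOTCH1 targeted and 5297 and 4977 with RBPJ targeted; the 3 groups did not overlap (log2 −0.17 and −0.27). RPS25, which some viral messengers need to start translation, had 3989 and 3489 in control libraries, 3730.2 and 3499.6 in NOTCH1 libraries and 3123 and 3152 in RBPJ libraries: the NOTCH1 libraries were within the range of the controls and the RBPJ libraries below it (log2 −0.05 and −0.25). The limma adjusted p-value of each was 0.983 after RBPJ knockdown. Without control replicate 1 the RBPJ values were −0.17 for RPS24, −0.17 for RPS18 and −0.15 for RPS25.

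Of 10 genes known from Diamond-Blackfan anaemia (among them RPS19, RPL5, RPL11, RPS26, RPS24, RPS7, RPS10, RPL35A and RPL15), 8 were lower after NOTCH1 knockdown (median −0.06) and 10 after RBPJ knockdown (median −0.13). RPS19, the gene most often mutated in that disease, had 7426 and 7676 in the controls, 8368 and 7617 under NOTCH1 knockdown and 6946 and 7393 under RBPJ knockdown; the NOTCH1 libraries overlapped the controls and the RBPJ libraries lay below them. RPL15 had 3571 and 2778 in the controls, 3301 and 2591 under NOTCH1 knockdown and 3137 and 2667 under RBPJ knockdown: replicate 1 was above replicate 2 in every group by more than the group means differed.

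**Figure D4:**
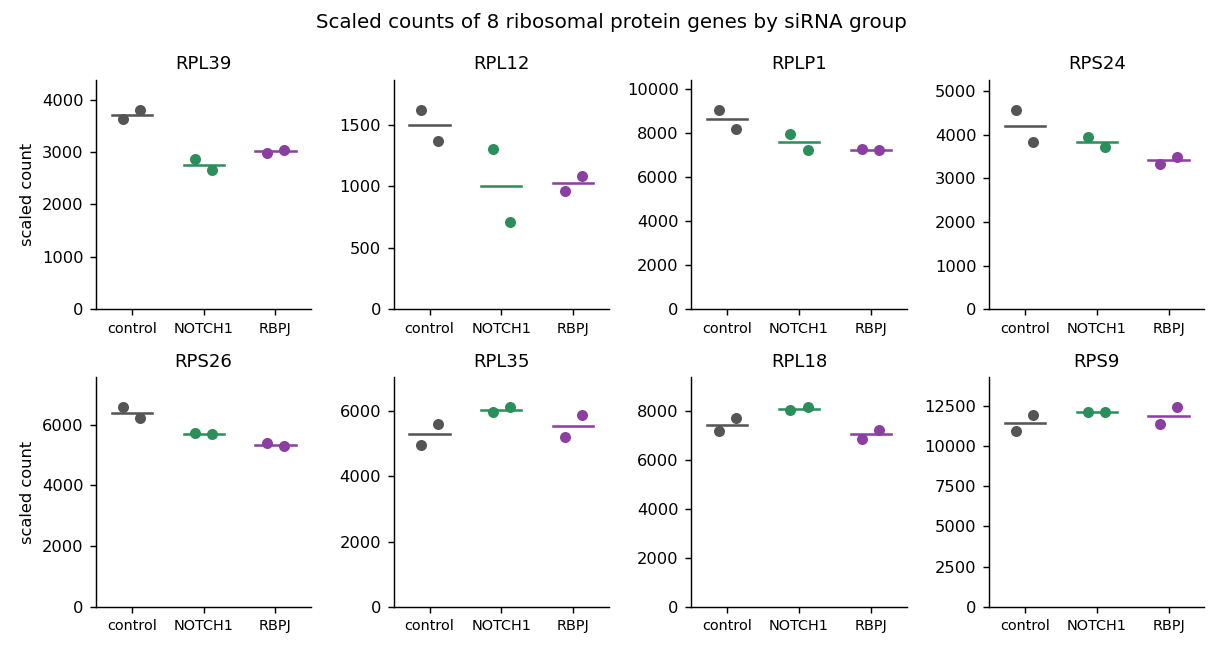
Scaled counts (vertical axes from 0, each with its own range) of 8 genes by siRNA group; points are libraries, replicate 1 on the left, and lines are group means. RPL39, RPL12, RPLP1 and RPS26 lie below both controls in all 4 knockdown libraries, RPS24 does so in the RBPJ libraries, and RPL35, RPL18 and RPS9 lie above both controls in the NOTCH1 libraries.

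RPL18, RPL19, RPL28, RPL35, RPS9, RPS16 and RPSA were among the 8 genes with both NOTCH1 libraries above both controls. RPL18 had 7162 and 7699 with the nonspecific siRNA, 8044 and 8144 with NOTCH1 targeted and 6834 and 7239 with RBPJ targeted, with tight NOTCH1 replicates above the rest (log2 0.12 and −0.08, the first 0.07 without control replicate 1). RPL28 had 7612 and 8619 in control libraries, 8839.5 and 8774 in NOTCH1 libraries and 7354 and 8233 in RBPJ libraries (log2 0.12 and −0.06). For RPL18 and RPL28 control replicate 1 was lower than control replicate 2, the opposite of most members.

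RPS9, a protein near the channel's entry that helps hold the decoding site accurate, had 10913 and 11911 in the controls, 12133 and 12138 under NOTCH1 knockdown and 11344 and 12398 under RBPJ knockdown. It was one of the 2 genes not lower after RBPJ knockdown, but its value of 0.06 was −0.01 without control replicate 1, and likewise without RBPJ replicate 2. RPS16 had 7160.3 and 7287 in the controls, 7584 and 7691 under NOTCH1 knockdown and 6477 and 7076 under RBPJ knockdown, above the controls after one knockdown and below them after the other (log2 0.08 and −0.09). RPSA, known also as a laminin receptor, had 11414 and 11395 with the nonspecific siRNA, 12522 and 11989.5 with NOTCH1 targeted and 10903 and 11611 with RBPJ targeted, with the RBPJ libraries on either side of the controls (log2 0.10 and −0.02).

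Paralogs, further copies of a ribosomal protein gene that can replace it in some tissues, formed 6 of the 80 members. All 6 were lower by sign after both knockdowns, with medians of −0.16 and −0.13, and none was called. RPL22L1 had 678 and 689.6 in the controls, 621 and 578 under NOTCH1 knockdown and 596 and 726 under RBPJ knockdown, with the RBPJ libraries on both sides of the controls. RPL7L1, which acts in ribosome assembly, had 2190.0 and 2157 in control libraries, 1878 and 1964 in NOTCH1 libraries and 1911 and 1893 in RBPJ libraries and did not overlap with the controls (log2 −0.18 and −0.19). RPL26L1 had 617 and 580.5 in the controls, 503 and 548 under NOTCH1 knockdown and 537 and 570.3 under RBPJ knockdown, below the controls in all 4 knockdown libraries. Scaled counts of a paralog as a percent of those of its parent overlapped between each knockdown and the control for 4 of the 5 pairs: 15.5 to 19.3% for RPL26L1 of RPL26, 13.9 to 17.4% for RPL36AL of RPL36A, 24.1 to 29.0% for RPL7L1 of RPL7, 32.3 to 37.5% for RPS27L of RPS27 and 17.1 to 18.8% for RPS4Y1 of RPS4X over all libraries. The exception was RPL26L1, at 16.7% and 17.6% in the controls and 18.02% and 19.3% under RBPJ knockdown. Only changes of these ratios between libraries can be read, because no transcript lengths were at hand. For the same reason the order of scaled counts between genes, from 449.7 for RPL36AL to 29599 for RPS2 as means over all libraries, is not an order of levels. Reads of near-identical copies and processed pseudogenes, common in this family, can be split between loci in a way the deposited values do not show.

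Ribosomal proteins with other symbols were not members but were compared. FAU, a fusion that yields the small subunit protein eS30, had 5738 and 5974 in the controls, 4937 and 4879 under NOTCH1 knockdown and 5043 and 4805 under RBPJ knockdown, with all knockdown libraries below both controls (log2 −0.25 and −0.25, adjusted p = 0.569 and 0.983 by limma). RACK1, a scaffold on the small subunit, had log2 changes of −0.07 and −0.15.

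The knockdowns were also compared with each other, which leaves the control libraries out of the difference. Values were higher under NOTCH1 than under RBPJ knockdown for 72 of 80 genes by sign, against 52.7% of all genes, with a median of 0.08 (5.47%) against 0.01 for all genes. Large subunit genes had a median of 0.07 (41 of 47 higher) and small subunit genes of 0.09 (31 of 33 higher), a gap of −0.019. Both NOTCH1 libraries were above both RBPJ libraries for 35 genes, 19 large and 16 small, against 17.5% of all genes, and RPL39 alone was below in both, against 15.5% of all genes. No member passed limma's test (adjusted p = 0.999 for every member), 439 of all genes had an unadjusted p below 0.05, and RBPJ was the single gene called of 12070 (0.00829%), against 15 genes and no member with the replicate block. The median was 0.14 without NOTCH1 replicate 2 and 0.03 without NOTCH1 replicate 1. Under quantile normalization it was 0.03, with 55 of 80 genes higher, and 0.04 when scaled by the total of the other genes. All genes tested then had medians of 0.00 and −0.02.

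Members with a wide gap were RPS25 (log2 0.20), RPL18 (0.20), RPL35A (0.19), RPL6 (0.18), RPL28 (0.18), RPS16 (0.17) and RPS27A (0.17), all higher under NOTCH1 knockdown. Without RBPJ replicate 1, RPL28 was at 0.10 and RPS16 at 0.11. RPL6 had 9019 and 8586 under NOTCH1 and 7657 and 7884 under RBPJ knockdown, against 9293 and 8037 in the controls. RPS27A, a fusion of ubiquitin and a small subunit protein, had 4603 and 4725 under NOTCH1 and 4219 and 4071 under RBPJ knockdown, against 4670.2 and 4261 in the controls. RPL22L1 (−0.14), RPL39 (−0.13) and RPL12 (−0.09) lay farthest on the other side; RPL12 was at 0.35 without NOTCH1 replicate 2 and at 0.00 without RBPJ replicate 2, and RPL22L1 at 0.01 without the latter. RPL39 was at −0.07 without NOTCH1 replicate 2.

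Genes that make, load or regulate ribosomes were given by list, and none of the lists had a gene past the test in any comparison. Elongation and termination factors (11 genes) had medians of 0.00 after NOTCH1 knockdown (5 lower) and −0.08 after RBPJ knockdown (8 lower). Initiation factors (34 genes) had 0.00 (16 lower) and −0.06 (23 lower). Other genes whose messengers carry a 5′ TOP motif (22 genes, some shared with the lists above) had −0.01 (11 lower) and −0.08 (16 lower). Against these, the ribosomal protein genes had the lower medians of −0.08 and −0.15; the difference between lists was not tested.

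Ribosome assembly factors (43 genes) had medians of −0.06 (30 lower) and −0.09 (34 lower). Of these NMD3, the export adaptor of the large subunit, had 492 and 453 in the controls, 371 and 366 under NOTCH1 and 389.7 and 373 under RBPJ knockdown. NOP56, a core protein of the particles that methylate ribosomal RNA, had 3479 and 3537 in control libraries, 3322 and 3387 in NOTCH1 libraries and 2951 and 2917 in RBPJ libraries. Both genes lay below the controls in all 4 knockdown libraries. Chaperones and carriers of ribosomal proteins (15 genes) had medians of −0.05 (11 lower) and −0.07 (11 lower). Here the import receptor IPO9 was above both controls in all 4 knockdown libraries, with 1425 and 1548 in the controls, 1804 and 1641 under NOTCH1 knockdown and 2006 and 1805 under RBPJ knockdown.

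The 77 mitochondrial ribosomal protein genes, which serve a separate ribosome, had medians of −0.05 (48 lower) and −0.08 (57 lower). MRPL13 had 316 and 264 in the controls, 239 and 261 under NOTCH1 knockdown and 221 and 204 under RBPJ knockdown, and MRPL52 had 370.4 and 337 in the controls, 283 and 259 under NOTCH1 knockdown and 296 and 289 under RBPJ knockdown. Regulators of ribosomal protein messengers and of ribosome number (17 genes) had medians of 0.05 (7 lower) and 0.02 (8 lower). MYC, a transcription factor that drives ribosome production, had 93 and 115 in the controls, 61.2 and 46.5 under NOTCH1 knockdown and 137 and 102 under RBPJ knockdown. It was thus lowest where NOTCH1 was targeted, at a log2 change of −0.94 (limma adjusted p = 0.461, not called), and overlapped the controls under RBPJ knockdown (log2 0.19). EIF4EBP1, a repressor of initiation held off by mTOR, had 538 and 696 with the nonspecific siRNA, 957 and 775 with NOTCH1 targeted and 761 and 694 with RBPJ targeted. LARP1, which binds 5′ TOP motifs, had 4099 and 4128 in control libraries, 4436 and 4379 in NOTCH1 libraries and 4027 and 3779 in RBPJ libraries.

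**Figure D5:**
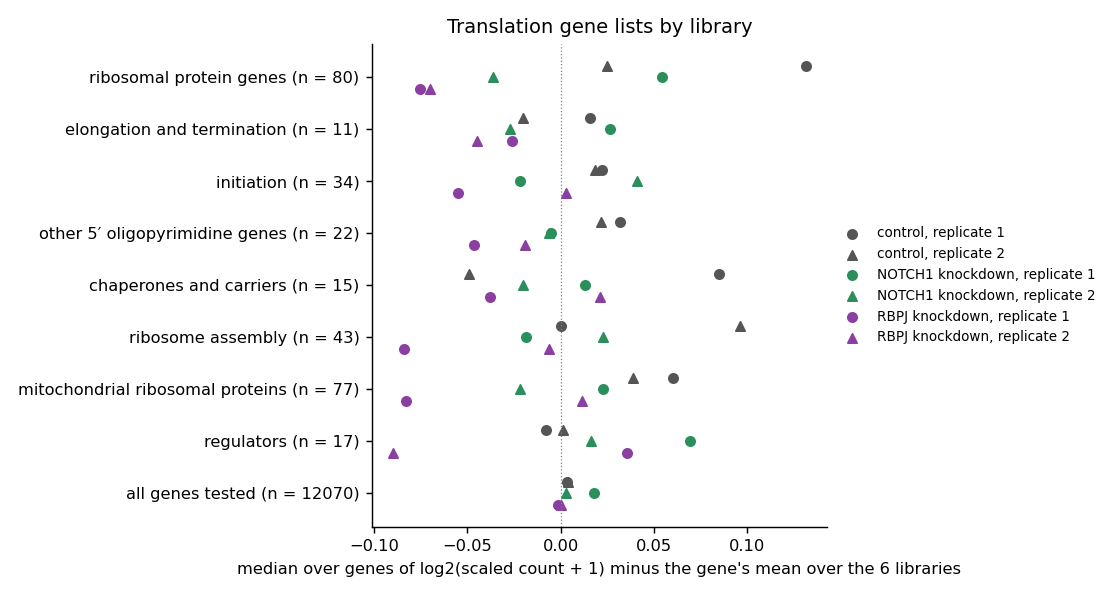
For each list of translation genes and each library, the median over genes of log2(scaled count + 1) minus the gene's mean over the 6 libraries; colours mark the siRNA group, circles replicate 1 and triangles replicate 2. In the ribosomal protein row the libraries run from −0.08 in the RBPJ knockdown to 0.13 in control replicate 1, while all genes tested stay within 0.02 of 0.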

How the data were processed

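For every gene and library the authors deposited a signal value, here read as a count divided by a scaling factor. The submitters' processing notes name Salmon 0.14.1, DESeq2 and the build ARS-UCD1.2, without their roles, and other steps are not given in the sources. Of the low values, 84.1 to 85.9% lay within 0.1 of a whole multiple, too few to recover whole reads, so no count-based test was run. Of 17922 rows, 2551 without a gene name (6.20 to 7.22% of the summed values) were not used, nor were 57 further rows that repeated a symbol. The spike-in RNAs were not used, so absolute RNA amounts were not analysed.

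Values were analysed as log2(value + 1), which understates fold changes of low genes, with limma 3.58.1 in R 4.3.3. One group-means model over all 6 libraries (3 residual degrees of freedom, variances moderated with a trend) was fitted to the 12070 named genes whose mean was 10 or more; Benjamini-Hochberg adjusted p had to be below 0.05. Same-numbered libraries deviated together in all 3 pairs of groups (correlations over genes of 0.167, 0.203 and 0.213 for replicate 2 minus replicate 1); the labels do not say what a number shares, and a fit with the number as a block is given where it changed a call. Lists are described by counts and medians, without a test. Genes named were the members of the role lists and paralogs, per comparison the 8 members with the smallest p and the 3 highest and 3 lowest fold changes, and list genes with the smallest p. RPL13A, RPL27 and RPSA were named after their values were seen. Values of some genes are not reported here by name, and the plot of fold changes leaves out 3 members, which all counts include. Members and lists were chosen with earlier results of these data known. Alternatives were other scalings, pseudocounts, filters, moderation, a replicate block, other member sets and leaving out each library. Python 3.11.15 with matplotlib 3.10.9 made the figures.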

Additional observations from a re-analysis of the deposited data

Results flagged for a closer look

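For RPL19 and RPS16 both NOTCH1 libraries were above both controls and both RBPJ libraries were below both. The NOTCH1 knockdown exceeded the RBPJ knockdown by 0.10 on the log2 scale for RPL19 and by 0.17 for RPS16, and neither difference passed limma's direct comparison of the knockdowns (adjusted p = 0.999). An opposite placement of the groups, in either direction, was seen in 2 of 80 ribosomal protein genes and in 191 of 12070 genes tested (1.58%), so these 2 genes are given as values only.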

How the results depend on the processing

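No ribosomal protein gene was called in any comparison under any alternative but the replicate block. With the replicate block 2 of the 80 members were called after NOTCH1 knockdown, against 138 of all 12070 genes tested. They were RPL39 (−0.43, limma adjusted p = 0.0196) and RPL12 (−0.63, adjusted p = 0.0451). No member was called with the block after RBPJ knockdown (12 of all genes) or in the direct comparison (15 of all genes). The block changed no other call among the members. The NOTCH1 median was −0.14 under quantile normalization and ranged from −0.13 to −0.01 when single libraries were left out; the direct median ranged from 0.03 to 0.14. The count of members below both controls after NOTCH1 knockdown was 44 when scaled by the total of the other genes, an alternative chosen after seeing the data, as were the counts by sign. Under that scaling 58.6% of all genes tested were lower by sign, and their share below both controls was not computed. The gap between the subunits in median log2 change had no stable sign after NOTCH1 knockdown. It was −0.036 under quantile normalization, 0.013 without the paralogs and −0.019 to 0.003 without single libraries. The same gap ranged from −0.022 to 0.010 after RBPJ knockdown and from −0.023 to −0.007 in the direct comparison, where it was −0.007 under quantile normalization. Single genes were followed through the alternatives for 31 results only, those with the smallest p or the highest or lowest fold changes per comparison. Signs of the other genes named in the text were not followed and can turn. Among the 31, leaving out single libraries turned RPL35 (−0.02 to 0.16) and RPS9 (−0.01 to 0.12) after RBPJ knockdown. It also turned RPL12 (−0.52 to 0.35) and RPL22L1 (−0.28 to 0.01) in the direct comparison. Other alternatives reversed none of the 31. The cause of these differences was not tested.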

Other observations

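RPL10L, known from the testis, had 3.18 and 5.42 scaled counts in the controls, 0 and 5.39 under NOTCH1 knockdown and 3.85 and 0 under RBPJ knockdown. RPL3L, known from striated muscle, was listed at 0 in the control and NOTCH1 libraries and at 3.07 and 2.05 under RBPJ knockdown. Values of this size are a few reads per library and were not tested.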
